A study of Homo sapiens with 6 samples.

Results

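Keratin genes were followed after knockdown of the long noncoding RNA DLEU1 in HSC-3, KON and Ca9-22, 3 lines from oral squamous cell carcinoma (OSCC). Members were all non-control probes whose gene name is KRT, a number and at most 1 letter from A to C, which leaves out the keratin-associated proteins. This gave 55 keratin genes, of 36337 gene names on the array, measured by 64 probes. Each line was transfected once with a control siRNA (siCtrl) and once with siDLEU1-2, a siRNA against DLEU1 (siDLEU1), and total RNA taken after 72 h was hybridised to 6 one-colour arrays, 1 for each line and siRNA. The 3 lines are thus the only replicates, each is an established tumour line, and both siRNAs were delivered with the same transfection reagent. Only 1 siRNA against DLEU1 was used on the arrays, so loss of DLEU1 and an off-target effect of that siRNA cannot be told apart. The single DLEU1 probe changed by -4.10 on the log2 scale for HSC-3, -3.63 for KON and -3.44 for Ca9-22. The arrays were alike in quality, with 43.0% to 45.7% of probes well above background. Of the 7 epithelial marker genes 6 were well above background on all arrays, and so were 2 of the 7 mesenchymal markers (VIM and COL1A1) and 1 of the 4 leukocyte markers (CD14). On no array were 4 of the mesenchymal markers, while each leukocyte marker and each of the 3 endothelial markers was on 1 array or more.

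Keratins are the intermediate filament proteins of epithelial cells. Acidic type I chains pair with basic type II chains, and the pair in use marks the kind and stage of the epithelium. Basal cells of stratified epithelium use KRT5 with KRT14 and KRT15, suprabasal cells switch to pairs such as KRT1 with KRT10 in skin or KRT4 with KRT13 in oral mucosa, stressed or activated keratinocytes add KRT6 with KRT16 and KRT17, and simple epithelium uses KRT8 with KRT18 and also KRT7 and KRT19. Hair keratins belong to the hair shaft and its sheaths. Squamous carcinomas keep much of the stratified set and can also make simple keratins.

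Levels below are log2 signals minus the 75th percentile of their own array, so that 0 is that percentile. Levels of different probes are not set against each other, because probes differ in brightness for the same amount of RNA. Since RNA came from whole cultures, fewer cells making a keratin and less keratin RNA per cell cannot be told apart. A probe was tested for the knockdown when each line had it well above background with siCtrl, with siDLEU1 or with both, and called when limma, with the cell line as a block, gave an adjusted p below 0.05 over all 19956 probes tested. Of the 64 keratin probes 41, from 35 genes, passed background on 1 array or more, and 31 probes from 25 genes could be tested. Probes of the remaining 20 genes did not rise well above background on any array: KRT2, KRT12, KRT20, KRT24 to KRT28, KRT35 to KRT38, KRT40, KRT72, KRT75 to KRT77, KRT79, KRT82 and KRT84.

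**Figure D1:**
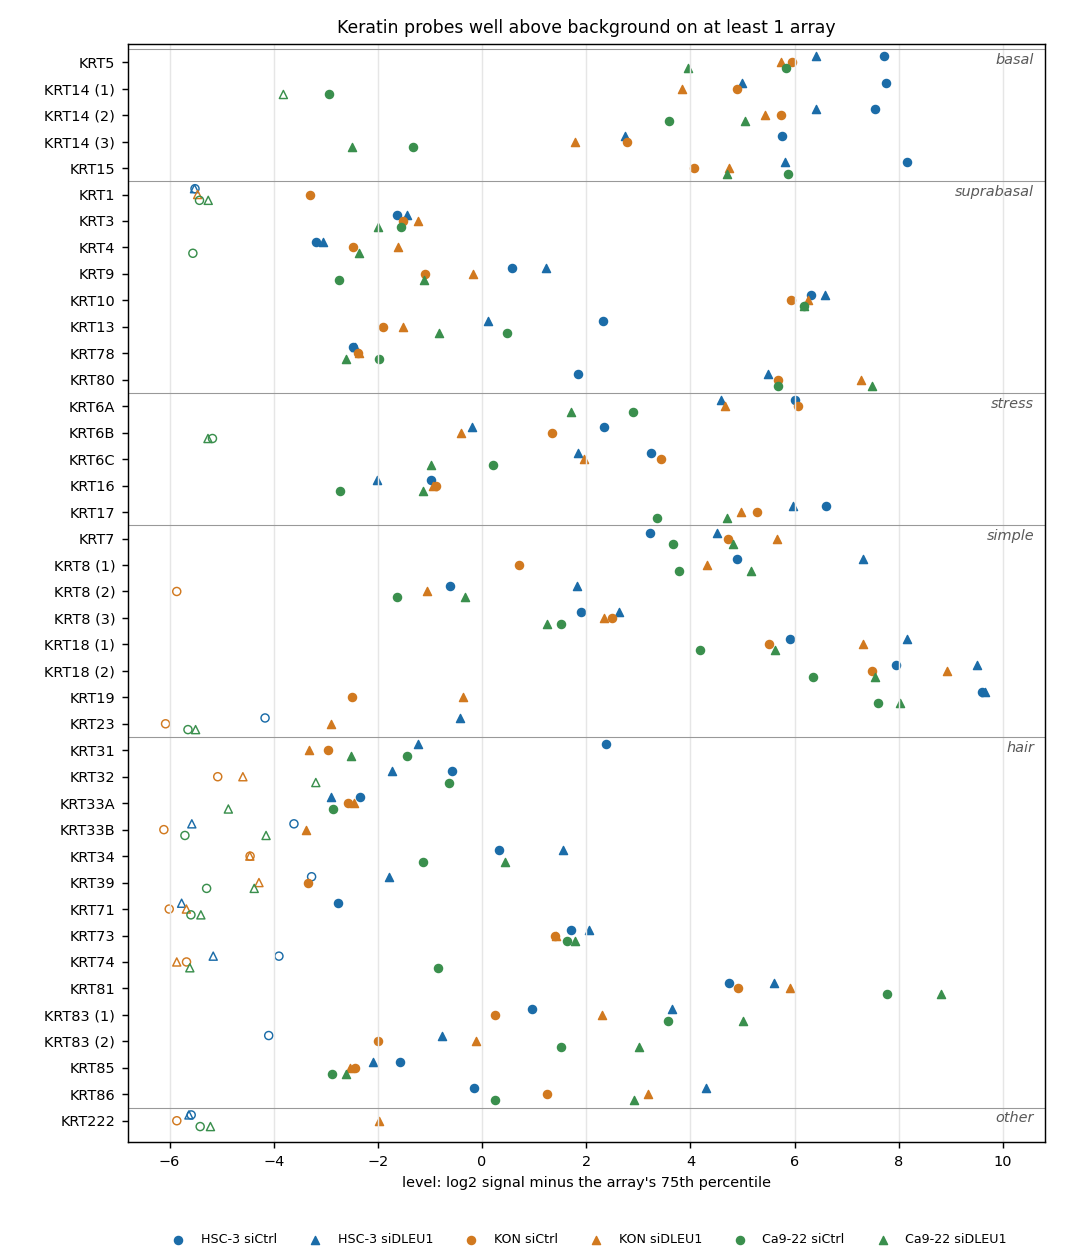
Levels, by class, of the 41 keratin probes that any of the 6 arrays showed well above background. The x axis is the log2 signal minus the 75th percentile of the array; circles are siCtrl and triangles siDLEU1, colours are the lines, and open symbols are values not well above background. Numbers in brackets count the probes of a gene by position. The KRT19 points of KON lie far to the left of those of HSC-3 and Ca9-22, as do the KRT14 (1) points of Ca9-22.

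By limma 9 keratin genes were called after siDLEU1. Higher after siDLEU1 were 7 genes: the simple keratins KRT7, KRT8 and KRT18, the hair keratins KRT81, KRT83 and KRT86, and KRT80, a keratin of differentiating epithelium. Lower were the stress keratins KRT6A and KRT6C, which moved alike and may not be independent results. Counted by probe, 9 of the 31 tested were called higher, against 3.98% of all probes tested, and 2 were called lower, against 4.52%. The median log2 fold change was 0.17 over the 31 keratin probes and 0.01 over all probes tested. By class the median was 1.40 for 7 simple, 0.57 for 8 hair, 0.19 for 7 suprabasal, -0.60 for 4 stress and -1.14 for 5 basal keratin probes. A gene with several probes counts several times in these medians. A change over 2-fold the same way in all 3 lines was seen for 5 genes upwards, KRT8, KRT18, KRT80, KRT83 and KRT86, and for KRT6A and KRT6C downwards; 8 of the 31 probes met this rule upwards and 2 downwards, where 2.08% of all probes met it upwards and 2.08% downwards. With 1 line left out few probes of any gene were called: over all probes limma called 0 in either direction without HSC-3 or without KON, and 127 higher and 117 lower without Ca9-22. Among keratins it called 3 keratin genes higher without Ca9-22 (KRT8, KRT18 and KRT83) and 0 without HSC-3 or without KON, and 0 lower in each case, while 16 keratin probes without HSC-3, 20 without KON and 15 without Ca9-22 had an unadjusted p below 0.05, against 22.8%, 23.4% and 22.0% of all probes. The 11 called probes kept their direction in these fits, with log2 fold changes such as 1.32 to 1.51 for the second of the KRT18 probes by position and 1.70 to 2.72 for KRT80. Neither keratins nor any other probes, 0 in all, were called by limma when the test took in all probes well above background on at least 1 array, when no filter was set, or when the block for the cell line was left out. An unadjusted p below 0.05 was then seen for 17, 18 and 2 keratin probes, against 19.8%, 13.5% and 6.8% of all probes.

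**Figure D2:**
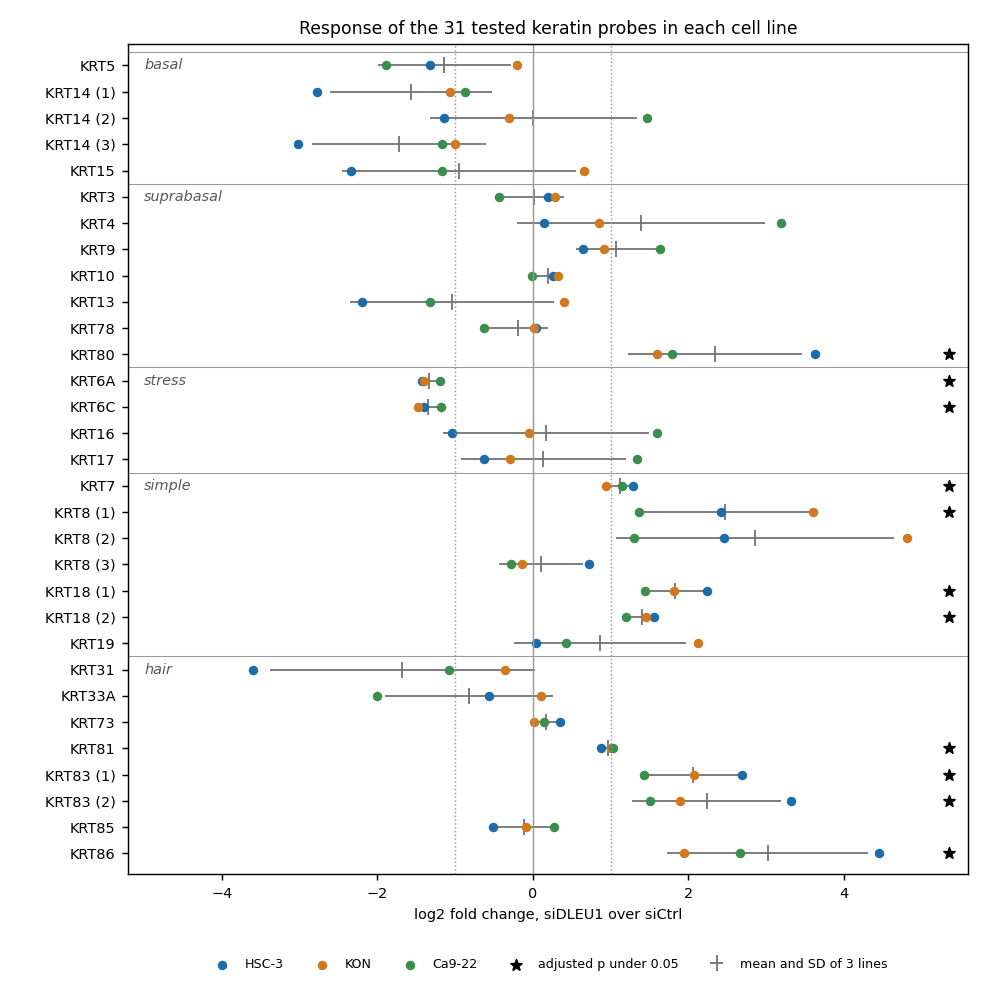
Log2 fold change, siDLEU1 over siCtrl, of the 31 tested keratin probes. Points are the cell lines, the grey tick and bar are the mean and SD of the 3 lines, dotted lines mark 2-fold, and stars mark an adjusted p below 0.05 in limma. Simple keratins lie mostly to the right of 0, and KRT6A and KRT6C to the left in each line.

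KRT8 and KRT18 are the partners of the first keratin filament to form in the embryo and the only filament pair of many simple epithelia. One of the KRT18 probes, at chr12:53346116-53346554 in hg19, read 7.94, 7.48 and 6.35 after siCtrl, in the order HSC-3, KON and Ca9-22, and 9.5, 8.92 and 7.55 after siDLEU1. Each line gained, by more than the differences between lines in that gain, although the highest control level lay above the lowest knockdown level. On average the log2 fold change came to 1.40 ± 0.19 (SD, 3 lines; limma adjusted p = 0.0247). The other KRT18 probe, at chr12:53345577-53345636, gave 1.83 ± 0.40 (adjusted p = 0.0247), with 2.24 for HSC-3, 1.82 for KON and 1.44 for Ca9-22.

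KRT8 was measured by 3 probes that did not move alike. The first, at chr12:53291026-53291085, read 4.90, 0.71 and 3.79 in HSC-3, KON and Ca9-22 after siCtrl and 7.32, 4.32 and 5.16 after siDLEU1. KON, the line with the lowest KRT8 level, gained most, although the same control array enters both the level and the gain. Over the lines the log2 fold change averaged 2.47 ± 1.12 (adjusted p = 0.0452), an increase in all 3 lines with a wide spread in size. The second probe, at chr12:53294461-53294995, gave 2.86 ± 1.79 and missed the threshold (adjusted p = 0.0734). Its control level in KON was not well above background, so its KON change is a bound, at least 6.92-fold. With dim values raised to the lowest level well above background, or with normexp background correction, that probe was called, at 2.18 (adjusted p = 0.0275) and 1.43 (adjusted p = 0.0265). The third probe, at chr12:53343241-53343300, stood at 0.10 ± 0.54 (adjusted p = 0.820). The files assign it to Ensembl transcripts alone, 48.2 kb from the other KRT8 probes and 2.3 kb before the nearer KRT18 probe, on the strand opposite to KRT18. Pseudogene copies of both genes also have probes. KRT18P55 rose by 1.67 ± 0.31 (adjusted p = 0.0247), and KRT8P12 stood at 2.69 ± 1.38 (adjusted p = 0.0529), over 2-fold higher in each line. Signal from parent and pseudogene was not separated here.

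KRT7, the type II keratin of ducts and glands, read 3.22, 4.72 and 3.67 in HSC-3, KON and Ca9-22 after siCtrl and 4.51, 5.66 and 4.81 after siDLEU1. The gain was close to 2-fold in each line, at 1.12 ± 0.18 on the log2 scale (adjusted p = 0.0297). KRT19, the smallest keratin, was not called (0.87 ± 1.11, adjusted p = 0.268). HSC-3 read 9.61 and 9.65, Ca9-22 read 7.59 and 8.02, but KON read -2.50 and -0.38, siCtrl first. The KON value was 2.12 higher after siDLEU1, and those of HSC-3 and Ca9-22 were higher by 0.04 and 0.43. KRT23, a type I keratin of simple epithelium and some carcinomas, passed background on none of the siCtrl arrays, but did after siDLEU1 in HSC-3 and KON, where it was at least 8.90-fold and at least 1.92-fold higher. It could not be tested across lines, since Ca9-22 had no level well above background. One of the KRT23 probes, like the KRT20 probe, stayed near background throughout.

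The stress keratins split. KRT6A, a type II chain of wounded and mucosal epithelium, read 6.01, 6.06 and 2.89 after siCtrl and 4.59, 4.67 and 1.70 after siDLEU1 in HSC-3, KON and Ca9-22. It fell in all lines by nearly the same amount, at -1.33 ± 0.13 on average on the log2 scale (adjusted p = 0.0247). KRT6C, a close relative, read 3.24, 3.43 and 0.20 after siCtrl and 1.84, 1.96 and -0.98 after siDLEU1, and fell by 1.35 on the log2 scale, with an SD of 0.15 (adjusted p = 0.0247). Line by line, its changes of -1.40, -1.48 and -1.18 lay close to the -1.42, -1.39 and -1.19 of KRT6A. Whether the KRT6C probe also caught RNA of KRT6A was not tested, so KRT6A and KRT6C may not be independent results. KRT6B changed by -2.53 in HSC-3 and by -1.74 in KON, and was not tested because neither Ca9-22 array was well above background. KRT16 and KRT17, the type I partners of KRT6, did not follow. KRT17 read 6.60, 5.27 and 3.37 after siCtrl and 5.97, 4.97 and 4.71 after siDLEU1, and KRT16 read -0.97, -0.89 and -2.74 and then -2.01, -0.93 and -1.14. Both were lower in HSC-3, near their control level in KON and higher in Ca9-22. Mean log2 fold changes were 0.14 ± 1.05 for KRT17 (adjusted p = 0.862) and 0.17 ± 1.33 for KRT16 (adjusted p = 0.863).

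No basal keratin was called by limma, although 3 of the 5 basal probes had an unadjusted p below 0.05, as did 29.5% of all probes tested. KRT5, the type II chain of basal cells, read 7.72, 5.95 and 5.83 after siCtrl and 6.40, 5.74 and 3.94 after siDLEU1. All 3 lines were lower, KON by little, and the mean of -1.14 ± 0.85 did not pass (adjusted p = 0.114). KRT15, a type I chain of basal and stem-like keratinocytes, read 8.16, 4.08 and 5.87 after siCtrl and 5.82, 4.73 and 4.71 after siDLEU1. HSC-3 and Ca9-22 were lower and KON higher (mean log2 fold change -0.95 ± 1.51, adjusted p = 0.347). Within HSC-3 alone all 5 basal probes were lower by more than 2-fold, where 6.68% of all probes tested were that much lower and 7.53% higher. In KON 1 of the 5 was over 2-fold lower, against 7.29% of all probes lower and 7.3% higher. In Ca9-22 3 of the 5 were lower and 1 higher, against 6.46% of all probes lower and 6.56% higher. These counts within a line compare single arrays and carry no test, and the 5 probes come from only 3 genes, with KRT14 counted 3 times. With KON left out, 7 keratin probes were over 2-fold lower in both other lines, against 3.04% of all probes tested, and 9 were over 2-fold higher, against 3.21%. The lower ones were those of KRT5, KRT13, KRT15, KRT31, KRT6A and KRT6C and the third KRT14 probe, but not the other KRT14 probes, and the higher ones belonged to KRT7, KRT8, KRT18, KRT80, KRT83 and KRT86.

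KRT14, the type I partner of KRT5, had 3 probes on chromosome 17, and their sequences are shown because the second gave a different answer from the others. All are written 5′ to 3′ as on the array, with hg19 positions on the minus strand. Capitals mark the run that the second probe shares with an array probe without a gene name, which lies elsewhere on the chromosome.

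KRT14, the first probe, chr17:39738706-39738765: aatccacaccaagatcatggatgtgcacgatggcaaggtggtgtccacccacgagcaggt
KRT14, the second probe, chr17:39740013-39740072: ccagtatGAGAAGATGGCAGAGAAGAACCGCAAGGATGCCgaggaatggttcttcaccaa
KRT14, the third probe, chr17:39742569-39742628: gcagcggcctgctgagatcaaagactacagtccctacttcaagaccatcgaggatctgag
Unnamed probe, chr17:28895838-28895897: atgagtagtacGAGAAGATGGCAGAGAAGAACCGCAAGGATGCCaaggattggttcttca
KRT16 probe, chr17:39767216-39767364: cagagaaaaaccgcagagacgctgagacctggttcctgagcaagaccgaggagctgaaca

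The first KRT14 probe read 7.75, 4.90 and -2.95 in HSC-3, KON and Ca9-22 after siCtrl and 4.98, 3.83 and -3.82 after siDLEU1, the last of these not well above background. The third read 5.76, 2.77 and -1.33 and then 2.75, 1.78 and -2.50. Both were lower in every line after siDLEU1, at -1.57 ± 1.04 and -1.72 ± 1.12 (for the first, at least 1.27-fold in Ca9-22), and neither passed the test (adjusted p = 0.0868 and 0.0824). The second read 7.54, 5.73 and 3.59 and then 6.41, 5.42 and 5.06. It was lower in HSC-3 and KON but higher in Ca9-22, by -1.14, -0.31 and 1.47 (mean 0.01 ± 1.33, adjusted p = 0.994). The unnamed probe, identical to it at 51 of 56 aligned bases with a run of 33, changed by -1.08, -0.24 and 1.49 in the same order. The KRT16 probe, identical to the second KRT14 probe at 32 of 43 aligned bases, changed by -1.04, -0.05 and 1.59.

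The KRT17 probe had a similar neighbour, a probe named only by an Ensembl transcript, and the pair is printed with the shared run of 27 bases in capitals.

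KRT17 probe, chr17:39776976-39777035: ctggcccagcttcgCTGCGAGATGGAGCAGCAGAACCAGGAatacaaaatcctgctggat
Transcript probe, chr17:16745338-16745397: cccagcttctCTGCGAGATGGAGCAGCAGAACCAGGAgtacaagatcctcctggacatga

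KRT17 changed by -0.63, -0.30 and 1.34 in HSC-3, KON and Ca9-22, and the transcript probe by -1.06, -0.44 and 1.32. The second KRT14 probe, KRT16, KRT17 and both neighbours thus lay below 0 in HSC-3 and KON and above it in Ca9-22, while the other KRT14 probes lay below 0 in all 3 lines. The probe of the pseudogene KRT16P2, at -2.02, -0.59 and 1.21, and the detected one of KRT42P, at -0.30, -0.17 and 1.44, had the same order of signs, and neither was called (adjusted p = 0.664 and 0.626). Which RNA each of these probes caught was not tested, and values for KRT14, KRT16 and KRT17 are uncertain to that extent.

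**Figure D3:**
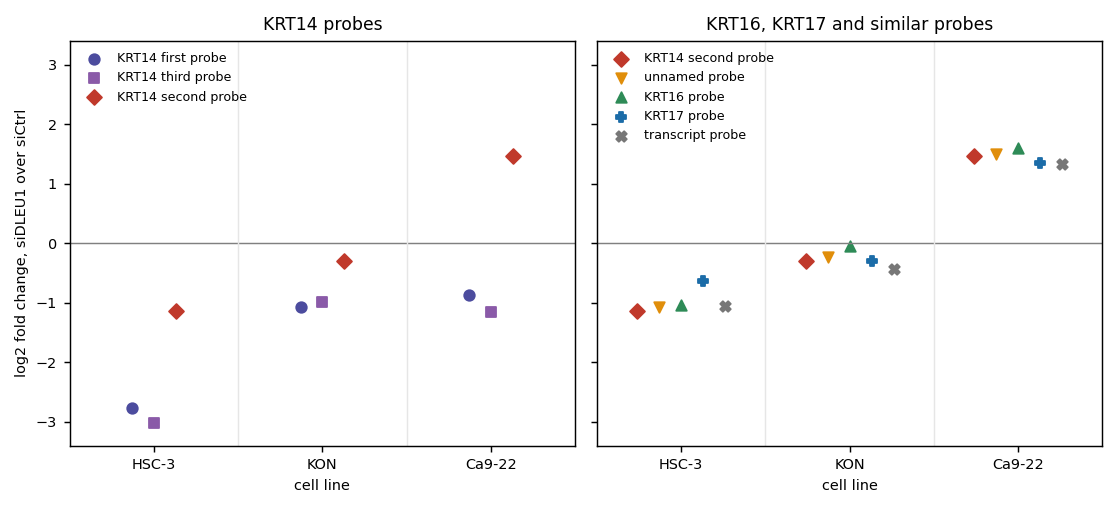
Log2 fold change, siDLEU1 over siCtrl, by cell line, of the 3 KRT14 probes (left) and of the second KRT14 probe beside KRT16, KRT17 and the 2 array probes that share long runs with KRT14 and KRT17 (right). Each point is 1 pair of arrays. In Ca9-22 the first and the third KRT14 probes lie below 0 and the second at 1.47, among the points for KRT16 and KRT17.

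Of the suprabasal keratins KRT80 alone was called. It read 1.84, 5.67 and 5.69 in HSC-3, KON and Ca9-22 after siCtrl and 5.48, 7.27 and 7.48 after siDLEU1. HSC-3 started lowest and gained most, although the same control array enters both values. The average log2 fold change came to 2.34 ± 1.12 (adjusted p = 0.0489). Centring arrays on their median in place of the 75th percentile left KRT80 outside the threshold (2.27, adjusted p = 0.0537). KRT10, a type I chain of skin differentiation, stayed between 5.93 and 6.58 on all arrays and had a mean change of 0.19 ± 0.18 (adjusted p = 0.448). Its partner KRT1 was well above background only in KON after siCtrl, at -3.30. The mucosal partners KRT4 and KRT13 were not called. KRT13 read 2.31, -1.91 and 0.49 after siCtrl and 0.12, -1.52 and -0.83 after siDLEU1 (mean log2 fold change -1.04 ± 1.32, adjusted p = 0.260). KRT4 read -3.19, -2.47 and -5.55 and then -3.05, -1.62 and -2.37 (1.39 ± 1.59, adjusted p = 0.218). Its Ca9-22 control level was not well above background, and KRT4 was at least 2.11-fold higher there after siDLEU1. With dim values raised the KRT4 mean was 0.69 (adjusted p = 0.118), and with normexp correction 0.39 (adjusted p = 0.161). KRT9, a keratin of palm and sole skin, was higher in each line, by 0.65, 0.92 and 1.64, and missed the threshold (1.07 ± 0.51, adjusted p = 0.0617). It passed with normexp correction (0.68, adjusted p = 0.0300) and when only probes well above background on all 6 arrays were kept (adjusted p = 0.0447). KRT3, a corneal keratin, and KRT78 lay within 0.2 of 0 on average, at 0.01 and -0.19.

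Among the hair keratins the called genes were neighbours. KRT86, a type II chain of the hair shaft, read -0.15, 1.24 and 0.25 in HSC-3, KON and Ca9-22 after siCtrl and 4.30, 3.18 and 2.92 after siDLEU1. Every knockdown level lay above every control level, and the mean log2 fold change of 3.02 ± 1.29 (adjusted p = 0.0397) was the highest of the tested keratin probes. That rank rests on HSC-3, at 4.45, since in KON the first KRT8 probe gained 3.61 against 1.94 for KRT86. KRT81 read 4.73, 4.90 and 7.78 and then 5.61, 5.91 and 8.81. It gained 0.97 ± 0.08 (adjusted p = 0.0307), the least variable of the called changes. KRT83 had 2 probes, both carrying accessions of other keratin probes, and the second is shown for that reason.

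KRT83, the second probe, chr12:52710677-52710736: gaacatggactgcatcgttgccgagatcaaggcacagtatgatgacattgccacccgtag

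The first read 0.96, 0.24 and 3.58 after siCtrl and 3.65, 2.31 and 5.01 after siDLEU1 (2.06 ± 0.63, adjusted p = 0.0300). The second read -4.10, -2.01 and 1.51 and then -0.77, -0.12 and 3.02 (2.24 ± 0.96, adjusted p = 0.0416), with the HSC-3 control level not well above background and a change there of at least 7.0-fold. With normexp correction the change on the second probe was smaller, at 1.24 (adjusted p = 0.0123). Through RefSeq accessions the files list the first probe under KRT81 and KRT85 as well as KRT83, and both probes also carry the transcript accession that the files give for the KRT86 probe. Calls for KRT81, KRT83 and KRT86 are thus not independent of each other, and how far each gene rose is uncertain. KRT85 itself was not called, at -0.11 ± 0.39 (adjusted p = 0.745). KRT31, a type I hair keratin, changed by -3.60 for HSC-3, -0.35 for KON and -1.08 for Ca9-22 (adjusted p = 0.177), and the inner root sheath keratin KRT73 stood at 0.17 ± 0.16 (adjusted p = 0.493). KRT33A stood at -0.82 ± 1.08 (adjusted p = 0.281). Its Ca9-22 level after siDLEU1 was not well above background, so it was at least 1.33-fold lower there, and the mean was -0.29 with dim values raised (adjusted p = 0.361) and -0.18 with normexp correction (adjusted p = 0.430).

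Several genes reached a level well above background on few arrays and were not tested. KRT71 did so in HSC-3 after siCtrl, KRT74 in Ca9-22 after siCtrl, and KRT33B and KRT222, a keratin-like gene, in KON after siDLEU1. KRT39 did so in HSC-3 after siDLEU1 and in KON after siCtrl, and its probe shares a run of 24 bases with an unnamed array probe. KRT32 was well above background on both HSC-3 arrays and in Ca9-22 after siCtrl, and KRT34 on all arrays of HSC-3 and Ca9-22. KRT34 levels were 0.33 and -1.14 after siCtrl and 1.55 and 0.43 after siDLEU1 in those lines.

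The called genes were grouped along the genome. All of them lie in the keratin cluster on chromosome 12, which holds the type II genes and KRT18, where 11 of the 19 tested probes were called, against 8.5% of all probes in either direction. Of the 12 tested probes in the type I cluster on chromosome 17 none was called by limma, and 3 had an unadjusted p below 0.05, those of KRT9 and of the first and the third KRT14 probe, a share no higher than the 29.5% of all probes. In the chromosome 12 cluster the probes of KRT80, KRT7, KRT81, KRT86 and KRT83, all called higher, lie within 147.2 kb at one end. The KRT85 probe, not called, follows at 190.9 kb, then KRT6C and KRT6A at 300.2 kb and 317.6 kb from the KRT80 probe, and KRT5, not called, at 345.1 kb. The called KRT8 and KRT18 probes lie at the other end, from 727.5 kb to 782.6 kb, with the other KRT8 probes, not called, between them at 731 kb and 779.8 kb. Tested probes between KRT5 and KRT8, those of KRT73, KRT3, KRT4 and KRT78, were not called. No test of position was made, and the 11 called probes are not independent results. Calls for KRT81, KRT83 and KRT86 depend on each other, those of KRT6A and KRT6C moved alike, and KRT83 and KRT18 are counted by several probes.

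**Figure D4:**
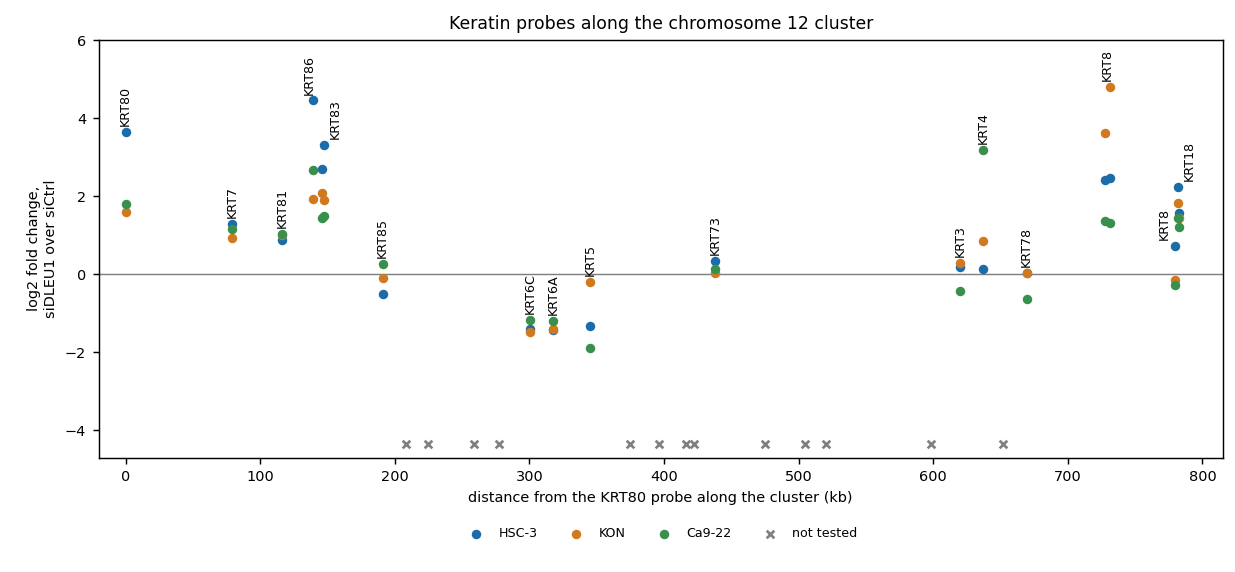
Log2 fold change, siDLEU1 over siCtrl, of each tested probe in the chromosome 12 keratin cluster against its distance from the KRT80 probe in kb. Points are the cell lines, and crosses at the bottom mark probes that were not tested. Probes above 2-fold in all lines lie near the left and right ends and those of KRT6C and KRT6A, below 0 in each line, lie between.

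Keratin levels also differed between the lines. The lines were compared by limma with the siRNA as a covariate, over 23700 probes, and the 2 arrays of a line stand in as its replicates although they had different siRNAs. A probe was kept when both arrays of at least 1 line were well above background. KRT34, KRT32 and KRT6B were thus kept through lines where they are high, so a difference from a line near background was partly built in. Their calls are no separate support for those differences. Of 34 keratin probes tested, 11 differed between KON and HSC-3, 16 between Ca9-22 and HSC-3 and 15 between Ca9-22 and KON. Over all probes tested 37.4% differed in the first comparison, 37.4% in the second and 35.9% in the third, so keratin shares of 32.4%, 47.1% and 44.1% were not far from those of all probes.

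KON stood apart by KRT19, whose level differed from that of HSC-3 by -11.06 on the log2 scale (adjusted p = 0.00174) and lay below that of Ca9-22 (Ca9-22 minus KON 9.25, adjusted p = 0.00202). KON also had less KRT8 than HSC-3 on the first 2 probes, with a difference of -3.60 on the first (adjusted p = 0.0138). On the second, whose KON control level was not well above background, it was -3.05 with that level raised to the lowest one well above background (adjusted p = 0.00706), against -4.06 as measured (adjusted p = 0.0277). The type I hair keratin KRT34 was at least 24.6-fold higher in HSC-3 and at least 10.1-fold higher in Ca9-22 than in KON, where neither array was well above background. KRT32 was at least 5.78-fold and at least 3.39-fold higher, with 1 of the Ca9-22 arrays itself not well above background. As measured, its differences were called (KON minus HSC-3 -3.68, adjusted p = 0.0242, and Ca9-22 minus KON 2.92, adjusted p = 0.0426). With dim values raised to the lowest level well above background, the KRT32 difference between Ca9-22 and KON was no longer called (1.76, adjusted p = 0.101). KRT31 (-3.72, adjusted p = 0.0305) and KRT13 (-2.93, adjusted p = 0.0302) were also lower in KON than in HSC-3. KRT7 was higher in KON than in HSC-3 by 1.32 (adjusted p = 0.0116) and lower in Ca9-22 than in KON, with a difference of -0.95 (adjusted p = 0.0242). The KRT7 difference between Ca9-22 and HSC-3 was small and not called (0.37, adjusted p = 0.185).

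Ca9-22 stood apart by KRT14. Against HSC-3 its level differed by -9.75 on the first probe (adjusted p = 0.00192; -9.49 with the dim siDLEU1 level of Ca9-22 raised to the lowest one well above background) and by -6.17 on the third (adjusted p = 0.00462), and by -2.65 on the second (adjusted p = 0.0390), the probe that resembles other sequences. Against KON the first and the third differed by -7.75, or -7.48 with that level raised, and -4.19 (adjusted p = 0.00255, 0.00269 and 0.0101), while the second was not called (-1.25, adjusted p = 0.20). KON in turn was lower than HSC-3 on the first probe (-2.0, adjusted p = 0.0446), a call lost at the same difference with dim values raised (adjusted p = 0.0523), and the third missed the threshold (-1.98, adjusted p = 0.0531). KRT6A and KRT6C were lower in Ca9-22 too, with differences of -3.0 and -2.93 against HSC-3 (adjusted p = 0.00225 and 0.00238) and of -3.07 and -3.08 against KON (adjusted p = 0.00194 and 0.00202). KRT6B was at least 21.6-fold higher in HSC-3 and at least 14.3-fold higher in KON than in Ca9-22, where neither array was well above background. The KRT6A and KRT6C differences of KON from HSC-3 were small and not called (0.07, adjusted p = 0.789, and 0.15, adjusted p = 0.540). KRT18, KRT5 and KRT17 were lower in Ca9-22 than in HSC-3, with differences of -1.77 on the KRT18 probe described first (adjusted p = 0.00640), -2.18 (adjusted p = 0.0244) and -2.25 (adjusted p = 0.0350). Against KON, Ca9-22 was lower on both KRT18 probes, with differences of -1.25 on the one described first and -1.50 on the other (adjusted p = 0.0137 and 0.0167), while KRT5 and KRT17 were not called (adjusted p = 0.158 and 0.176). In the other direction, KRT81 was higher in Ca9-22 than in HSC-3 by 3.13 (adjusted p = 0.00203) and than in KON by 2.89 (adjusted p = 0.00205), and KRT83 by 1.99 and 3.02 on its first probe (adjusted p = 0.0171 and 0.00731).

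HSC-3 stood apart by little KRT80, which exceeded it by 2.81 for KON and 2.93 for Ca9-22 (adjusted p = 0.0238 and 0.0215). KRT9 differed between all lines. It was highest in HSC-3, from which KON differed by -1.54 and Ca9-22 by -2.83 (adjusted p = 0.0223 and 0.00602), and Ca9-22 differed from KON by -1.30 (adjusted p = 0.0335). KRT85 was slightly lower in Ca9-22 than in HSC-3 (-0.92, adjusted p = 0.0493). KRT10, KRT3, KRT78, KRT73, KRT86, KRT15, KRT16, KRT4 and KRT33A were called in none of the 3 comparisons.

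Vimentin, the filament protein of mesenchymal cells, gave HSC-3 levels of 4.07 and 4.32, KON levels of -0.20 and -0.41 and Ca9-22 levels of -2.05 and -1.36, siCtrl first, and was not called after the knockdown (0.24 ± 0.45, adjusted p = 0.505). Of the other intermediate filament genes 9 were tested on 12 probes and 1 probe was called, close to the 8.5% of all probes called in either direction. It belongs to nestin (NES), a filament protein of progenitor cells, which rose by 2.30 ± 0.20 on that probe (adjusted p = 0.0227; in KON at least 4.68-fold, as the control level there was not well above background) and stood at 0.96 ± 0.88 on the other (adjusted p = 0.164). Of 14 tested genes that link, bundle or cross-link keratin filaments, 3 rose and 2 fell. By probe, 3 of 19 were called higher and 3 lower, against the 3.98% and 4.52% of all probes. Those that rose were plakophilin 2 (PKP2, a desmosomal plaque protein of simple and basal epithelium) by 1.22, periplakin (PPL, which ties keratin to the cell edge) by 1.26 and transglutaminase 1 (TGM1, which cross-links the cornified envelope) by 1.53, with adjusted p = 0.0298, 0.0295 and 0.0247. Those that fell were plakophilin 1 (PKP1, the plaque protein of suprabasal cells), at -1.49 on both probes (adjusted p = 0.0247 and 0.0380), and stratifin (SFN, a keratin-binding adaptor), at -0.81 (adjusted p = 0.0470).

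Of 25 tested transcription factors known to act on keratin genes or epithelial differentiation, 3 rose and 1 fell. By probe, 3 of 27 were called higher, against 3.98% of all probes, and 1 lower, which is near the 4.52% of all probes. TP63, the master regulator of stratified epithelium, read 0.77, -0.15 and -0.40 after siCtrl and -1.61, -2.50 and -3.08 after siDLEU1 in HSC-3, KON and Ca9-22. It fell by 2.46 on the log2 scale, with an SD of 0.18 (adjusted p = 0.0227). The last of these levels was not well above background, so the fall in Ca9-22 is a bound, at least 6.39-fold, and the mean and its p rest on it. OVOL1, a repressor active in differentiating epithelium, rose by 1.69 ± 0.50, PRDM1 by 1.84 ± 0.42 on one probe and HOXC13, a regulator of hair keratin genes, by 1.23 ± 0.31 (adjusted p = 0.0305, 0.0251 and 0.0315). The other PRDM1 probe stood at 1.30 ± 0.58 (adjusted p = 0.0512). The 7 epithelial marker genes did not move together: E-cadherin (CDH1) rose by 2.92 ± 0.21 (adjusted p = 0.0227), TP63 and SFN fell, and the others were not called. Of the mesenchymal markers COL1A1, a collagen gene, rose by 1.45 ± 0.57 (adjusted p = 0.0423). Any link between these genes and the keratins was not tested.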

How the data were processed

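Total RNA (100 ng) from each culture was labelled with Cy3 and hybridised to SurePrint G3 Human GE v2 arrays. The authors read the scans with Agilent Feature Extraction (10.7 per the labels, 10.7.3.1 per the file headers), which gave the deposited intensity of each spot, background-subtracted and detrended, with coordinates on hg19. A deposited value table holds the same intensities, within 0.497%. The authors' later normalisation in GeneSpring was not used here.

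Outlier spots were dropped, spots of a probe averaged, and log2 intensity taken minus the 75th percentile of each array. A probe passed background on an array if 50% or more of its usable spots carried the scanner's flag for being well above it. No spot was saturated. For 581 probes printed 10 times the median SD within an array was 0.060 to 0.066 (log2). limma 3.58.1 in R 4.3.3 was used with Benjamini-Hochberg adjustment, with 2 residual degrees of freedom per probe before moderation. Knockdown fits had the cell line as a block, since both arrays of a line come from the same line (deviations from group means correlated at 0.81 to 0.83). Line fits had the siRNA as a covariate. Scripts were tested on simulated data.

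Keratin classes, related gene lists and the rule for named genes (all keratins detected; values per array for called or class-defining ones) were chosen with earlier results of these data known, so the lists are no independent support. Symbols matched RefSeq for 55 of 55 genes. The files give no exon, intron or UTR for a probe, so none is stated. Alternatives were other scalings, background corrections and filters, probe means, left-out lines, no block and an unpaired test. The sequence of 1 KRT83 probe is not reported here.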

Additional observations from a re-analysis of the deposited data

Results flagged for a closer look

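For 2 of the 31 tested keratin probes the knockdown was over 2-fold in opposite directions in different lines. From the lowest line to the highest, log2 fold changes spanned 2.60 for the second KRT14 probe (-1.14 in HSC-3 and 1.47 in Ca9-22) and 2.63 for KRT16 (-1.04 and 1.59). With 1 array for each line and siRNA the difference between lines was not tested. The share of all probes tested that met this rule is not given, so the count says nothing particular to keratins.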

How the results depend on the processing

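The arrays of 3 lines set the limits: most calls were lost with any 1 line left out. With each line left out in turn, limma called 0 to 3 keratin genes higher and 0 lower, and 0 to 2 related genes higher and 0 to 1 lower; without HSC-3 or KON it called 0 of all probes, and the called keratin probes kept their direction. Keratin genes over 2-fold in the remaining lines numbered 5 to 6 higher and 2 to 7 lower, the 7 without KON. Letting probes into the test that were well above background on 1 of 6 arrays, or all probes, gave 0 calls among keratins and related genes, and 0 among all probes, with 17 and 18 keratin probes at an unadjusted p below 0.05. These filters also left 5 and 4 keratin genes called between KON and HSC-3, but the share of all probes called under them is not given. Without the block for the paired cell lines limma called 0 genes of either kind and 0 of all probes (2 keratin probes at an unadjusted p below 0.05). An unpaired test, which the paper does not describe for its arrays, called 0 keratin genes and 0 related genes after adjustment. A 3-fold rule left 2 keratin genes higher and 0 lower, and normexp correction left 1 over 2-fold lower. Under the other scalings, corrections and filters, all counts stayed within 1.5 times those reported, and no called keratin probe changed direction in any fit. All probes called higher and lower numbered 795 and 902, against 639 and 1069 with median centring, 1131 and 1177 with normexp, and 127 and 117 without Ca9-22. Dim probes have only bounds.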
